A study of Mus musculus with 6 samples.

Results

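Collagens are trimeric proteins of the extracellular matrix, and each of their chains is the product of its own gene. The chain genes of the mouse were taken as the rows of the gene count table with a protein-coding biotype and a symbol of the form Col, number, a, number. This gave 44 genes of the 41721 in the table. They were divided by textbook knowledge into 11 fibrillar chains, 8 basement membrane chains, 9 FACIT chains (fibril-associated collagens with interrupted helices) and 16 other chains. The samples were vascular smooth muscle cells grown from the abdominal aorta (MASMCs), labelled Pdk4fl/fl or Pdk4SMKO, with 3 libraries per genotype. Both alleles of Pdk4, which encodes an inhibitory kinase of the pyruvate dehydrogenase complex, are flanked by loxP sites around exons 4 to 6 in all 6 samples. In Pdk4SMKO a tamoxifen-inducible Cre driven by the smooth muscle promoter Myh11, carried on the Y chromosome, was used to delete them. The study describes tamoxifen for mice of both genotypes and a shared C57BL/6J background. The donors are described as male mice aged 10 weeks, and cells of passages 4 to 8 were used. For work in culture, the study's methods name 48 h without serum. Every sample is labelled with Ang II, given at 1 μM for 48 h, so there was no culture without it.

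Fibrillar collagens form the load-bearing fibres of the aortic wall, and type IV collagens form the network of the basement membrane around each smooth muscle cell. FACIT chains sit on the surface of fibres, and type VI collagen builds the beaded filaments between cells and fibres. In cultured smooth muscle cells, collagen output is known to accompany the change from the contractile to the synthetic state, and Ang II is a known inducer of it.

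Libraries held between 16526044 and 22481670 counts. Counts were normalized with edgeR's TMM factors and are given as CPM. For this, each library's total over the genes that passed a filter on low counts was multiplied by its factor. The factors were 0.784 to 0.838 in Pdk4fl/fl and 1.21 to 1.26 in Pdk4SMKO, so CPM here differs from a share of the library total. A count of 3 was taken as the detection floor and corresponded to between 0.132 and 0.227 CPM. Pdk4 was at 38.0, 35.1 and 31.9 CPM in Pdk4fl/fl and at 4.83, 9.06 and 6.92 CPM in Pdk4SMKO, with no overlap between genotypes (log2 fold change -2.34, SE 0.22, adjusted p = 4.49e-06 by edgeR's quasi-likelihood test with Benjamini-Hochberg adjustment). Xist, the RNA of the inactive X chromosome of female cells, had 3, 4 and 5 counts in Pdk4fl/fl and 610, 347 and 321 counts in Pdk4SMKO, which goes against a male origin of the libraries labelled Pdk4SMKO. All 3 of those libraries are affected, so no collagen value could be given without them, and genotype and this difference between the cell sources cannot be told apart. Among smooth muscle markers, 5 of 8 were called higher and 3 lower, against 32.8% and 26.5% of all genes tested. Of those higher, Acta2 was at 233 CPM in Pdk4fl/fl and 701 CPM in Pdk4SMKO. Myh11, also higher, had 8 to 10 counts in Pdk4fl/fl and 44 to 62 in Pdk4SMKO. Des, also higher, had 0 to 5 and 18 to 22 counts. Myh11 and Des passed the filter through Pdk4SMKO alone, so their calls are descriptions. Those lower were Tagln (253 against 52.7 CPM), Smtn (280 against 57.5 CPM) and Cnn1 (19.5 against 6.88 CPM). The summed CPM of 8 mesothelial markers ranged from 74.2 to 99.99 in Pdk4fl/fl and from 723 to 1325 in Pdk4SMKO. That of 8 fibroblast markers ranged from 130.1 to 160.1 and from 527 to 1043, mostly from Dcn (92.7 against 434 CPM) and Ly6a (9.27 against 378 CPM). Lum and Cd34 were also called higher and Dpt was called lower (21.1 against 10.5 CPM). Pdgfra and Pi16 were not called, and Fap was not tested. Of the 7 macrophage markers tested, 6 were called higher in Pdk4SMKO, against 32.8% of all genes tested. These 6 had at most 4 counts in any Pdk4fl/fl library, so they had to differ to pass the filter. Of the 8 listed, 5 were at 0 in every Pdk4fl/fl library. The macrophage sums of 21.6 to 38.0 and 12.2 to 37.9 CPM overlapped because of Cd68 (31.2 against 4.29 CPM), the 1 marker called lower. Endothelial markers summed to 16.0 to 24.9 and 3.33 to 6.72 CPM, mostly from Kdr (16.5 against 2.96 CPM). Cdh5, Emcn and Tie1 had no more than 2 counts in any library. The 6 cartilage markers found summed to 129 to 249.6 and 17.1 to 26.2 CPM, mostly from Sox9 (196 against 20.2 CPM). Acan was also called lower, Comp and Matn3 overlapped between genotypes, and Matn1 and Hapln1 had 0 counts in every library. The part of these differences in the collagen values below was not tested, and in bulk samples fewer cells of a type and less RNA per cell cannot be told apart.

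A collagen chain is recognized in its coding sequence by the glycine codon, GGN, at the start of each triplet of codons, since glycine is the residue that fits inside the triple helix. Stretches of 54 bases from the start of the longest such run are shown for 6 chains that carry the results below. They come from GENCODE M21 transcripts (GRCm38). Capitals mark the glycine codon that opens each triplet, and glycine codons at other positions, as in Col3a1, are in lower case.
Col1a1: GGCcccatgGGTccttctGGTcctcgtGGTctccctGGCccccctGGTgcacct
Col3a1: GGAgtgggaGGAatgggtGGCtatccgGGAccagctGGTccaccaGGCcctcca
Col4a3: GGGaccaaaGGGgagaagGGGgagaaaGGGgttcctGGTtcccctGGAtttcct
Col6a1: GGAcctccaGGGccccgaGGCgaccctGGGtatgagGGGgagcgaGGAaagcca
Col14a1: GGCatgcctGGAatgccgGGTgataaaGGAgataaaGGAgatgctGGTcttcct
Col28a1: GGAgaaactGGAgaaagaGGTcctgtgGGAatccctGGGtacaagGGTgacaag

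The longest unbroken run set the fibrillar class apart, while the other classes overlapped. It was between 216 and 344 triplets (median 338) in the 11 fibrillar chains, between 30 and 66 in basement membrane chains, between 32 and 113 in FACIT chains and between 23 and 87 in the others. Within the fibrillar class, Col24a1 and Col27a1 had the shortest runs, 216 and 217 triplets.

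Of the 44 chain genes, 32 passed edgeR's filter on low counts and 12 did not. Calls required a difference of 2-fold or more together with an adjusted p below 0.05. By this rule 22 chain genes were higher in Pdk4SMKO and 7 were lower, which is 68.8% and 21.9% of those tested. Over all 14085 genes tested, 32.8% were called higher and 26.5% lower, so more than every second gene tested was called and a single chain's call is not unusual in itself. The median log2 fold change was 1.99 over the chain genes tested and 0.12 over all genes tested. The filter was passed through Pdk4SMKO alone by 7 chain genes (Col2a1, Col4a3, Col4a4, Col9a3, Col20a1, Col24a1 and Col28a1) and through Pdk4fl/fl alone by 2 (Col8a2 and Col23a1). These had to differ in order to be tested, and their fold changes are descriptions. Of the other 23, 15 were called higher and 5 lower. Every Pdk4SMKO library lay above every Pdk4fl/fl library for 23 of the 32 chain genes tested and below for 7, or 71.9% and 21.9%, against 43.5% and 38.3% of all genes tested. These counts and the median include the chain genes that passed the filter through a single genotype.

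**Figure D1:**
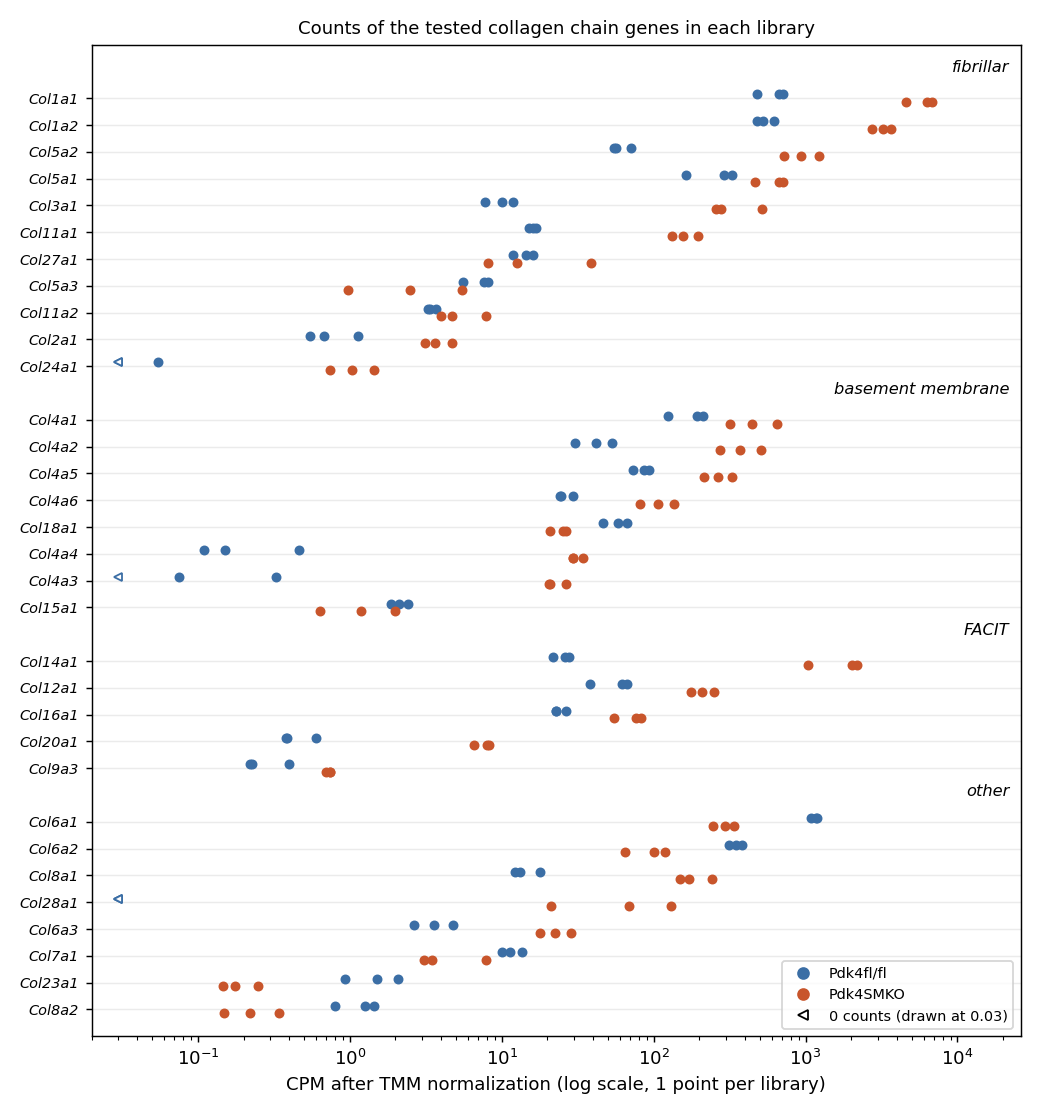
CPM after TMM normalization (horizontal axis, log scale) of the 32 tested collagen chain genes, with 1 point per library and the classes set apart. Blue points are the 3 Pdk4fl/fl libraries and orange points the 3 Pdk4SMKO libraries, and the Col6a1 points lie at 1078 to 1192 CPM in blue and 246 to 337 CPM in orange, while those of Col1a1 lie at 478 to 715 and 4604 to 6777 CPM.

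Fibrillar chains rose more often than they fell. All 11 were tested, 8 were called higher and 1 lower, against 32.8% and 26.5% of all genes tested. Of those higher, Col2a1 and Col24a1 passed the filter through Pdk4SMKO alone and had to differ to be tested. Col1a1, the major chain of type I collagen (MGP_C57BL6NJ_G0019363, C57BL/6NJ assembly, chr11:100181204-100199590), was at 715, 666 and 478 CPM in Pdk4fl/fl and at 6777, 6321 and 4604 CPM in Pdk4SMKO. The lowest Pdk4SMKO library was far above the highest Pdk4fl/fl library. The means were 620 ± 125 and 5901 ± 1146 CPM (SD, n = 3 libraries, as in all means below), 9.52-fold apart (log2 fold change 3.25, SE 0.21, adjusted p = 3.5e-07 by edgeR's quasi-likelihood test). Col1a2, the partner chain of type I collagen, was at 623, 528 and 483 CPM and at 3228, 3651 and 2757 CPM, again without overlap (log2 fold change 2.56, SE 0.16).

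Col3a1 encodes type III collagen, which is laid down with type I in the media of arteries and is the gene of vascular Ehlers-Danlos syndrome. It was at 11.8, 10.0 and 7.72 CPM in Pdk4fl/fl and at 257, 515 and 277 CPM in Pdk4SMKO. Every Pdk4SMKO library was higher, and replicate 2 was the highest (log2 fold change 5.14, SE 0.31, adjusted p = 1.96e-07 by edgeR). Its neighbour Col5a2, a chain of type V collagen that starts fibril assembly, lies tail to tail with it on chromosome 1, 27.8 kb apart. Col5a2 was at 71.2, 56.7 and 55.1 CPM and at 1229, 938 and 727 CPM, a log2 fold change of 3.98 (SE 0.22). Col5a1, its partner in type V collagen, differed less. It was at 329, 292 and 162 CPM in Pdk4fl/fl and at 714, 672 and 467 CPM in Pdk4SMKO (log2 fold change 1.24, SE 0.25, adjusted p = 0.00112 by edgeR), and the call was lost without Pdk4fl/fl replicate 3, when the log2 fold change was 0.98.

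The third chain of type V, Col5a3, was the only fibrillar chain called lower. It had 114, 148 and 73 counts in Pdk4fl/fl and 124, 50 and 20 in Pdk4SMKO, or 7.60, 8.13 and 5.52 CPM against 5.44, 2.49 and 0.98 CPM. Pdk4SMKO replicate 1 lay just under the lowest Pdk4fl/fl library. The call (log2 fold change -1.25, SE 0.48, adjusted p = 0.0347 by edgeR) was lost in 4 of the 6 fits that left out 1 library, with adjusted p = 0.0821 without Pdk4fl/fl replicate 1, 0.0995 without Pdk4fl/fl replicate 2, 0.0918 without Pdk4SMKO replicate 2 and 0.0665 without Pdk4SMKO replicate 3. Without Pdk4SMKO replicate 1 its log2 fold change was -2.02.

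Among fibrillar chains best known from cartilage, Col11a1 was at 16.9, 15.1 and 16.2 CPM in Pdk4fl/fl and at 195, 156 and 133 CPM in Pdk4SMKO. The Pdk4fl/fl libraries lay close together and all 3 Pdk4SMKO libraries were far above them (log2 fold change 3.33, SE 0.17). Col2a1, the main cartilage collagen, was low in both genotypes, with 17, 10 and 9 counts against 83, 95 and 64 (log2 fold change 2.28, SE 0.37). The cartilage regulator Sox9 went the other way, with a log2 fold change of -3.28. Col11a2 had a log2 fold change of 0.68 (SE 0.30, adjusted p = 0.0587 by edgeR) and was not called, although its libraries did not overlap. Col27a1 was at 14.5, 16.1 and 11.9 CPM in Pdk4fl/fl and at 39.0, 12.6 and 8.14 CPM in Pdk4SMKO. Only Pdk4SMKO replicate 1 stood above the Pdk4fl/fl libraries. The log2 fold change of 0.49 (SE 0.47, adjusted p = 0.352 by edgeR) turned to -0.44 without that library. Mesothelial markers were also highest in Pdk4SMKO replicate 1, where they summed to 1325 CPM against 723 and 829 in replicates 2 and 3. Sums of macrophage (37.9, 18.3 and 12.2 CPM), endothelial (6.72, 3.33 and 4.46) and smooth muscle markers (957, 844 and 722) were highest there too. Those of fibroblast and cartilage markers were lowest there. The part of these markers in the Col27a1 value was not tested. Col24a1, the other short-run fibrillar chain, had 0, 1 and 0 counts in Pdk4fl/fl and 33, 15 and 21 in Pdk4SMKO, a ratio of 50.6 with a 95% exact interval of 8.79 to 2029 that covers counting error only.

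The 6 type IV chains are encoded as 3 pairs that lie head to head, and all 6 were called higher in Pdk4SMKO, against 32.8% of all genes tested. Of these, Col4a3 and Col4a4 passed the filter through Pdk4SMKO alone and had to differ to be tested. Col4a1 and Col4a2 form the common network of vascular basement membranes. Their annotated starts overlap by 22 bases on chromosome 8, both in the assembly of the count table and in RefSeq (GRCm38.p6, chr8:11312805-11312826). The shared stretch is printed in capitals on the strand of Col4a2, since a read there could belong to either gene.
Col4a1 and Col4a2: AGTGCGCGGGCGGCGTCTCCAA
Col4a1 was at 213, 192 and 125 CPM in Pdk4fl/fl and at 653, 442 and 318 CPM in Pdk4SMKO. The genotypes did not overlap, and the spread within each was wide (log2 fold change 1.42, SE 0.27, adjusted p = 0.000659 by edgeR). Col4a2 was at 53.5, 41.7 and 30.4 CPM and at 511, 373 and 275 CPM (log2 fold change 3.20, SE 0.26), so that the partners of this pair differed unequally.

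Col4a3 and Col4a4, which assemble with Col4a5 in the specialised membranes of kidney and lung, start 71 bases apart on opposite strands of chromosome 1. Col4a3 had 0, 6 and 1 counts in Pdk4fl/fl and 470, 529 and 424 in Pdk4SMKO. Col4a4 had 7, 2 and 2 counts and 674, 689 and 598. Both were close to the floor in every Pdk4fl/fl library and were at 20.6 to 26.3 and 29.3 to 34.3 CPM in Pdk4SMKO, with log2 fold changes of 7.17 (SE 0.44) and 6.99 (SE 0.33) that rest on those few counts.

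Col4a5 and Col4a6, the chains of the X chromosome, start 1308 bases apart. Col4a5 was at 93.9, 85.9 and 73.3 CPM in Pdk4fl/fl and at 329, 266 and 213 CPM in Pdk4SMKO (log2 fold change 1.68, SE 0.17). Col4a6 was at 29.4, 24.2 and 24.6 CPM and at 137, 108 and 81.1 CPM (log2 fold change 2.06, SE 0.19). Neither chain overlapped between genotypes. Xist differed between the same libraries, and its part in these 2 values was not tested.

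The remaining basement membrane chains are those of types XV and XVIII, whose fragments include endostatin. Col18a1 was at 58.0, 66.9 and 46.2 CPM in Pdk4fl/fl and at 25.2, 26.4 and 20.8 CPM in Pdk4SMKO, without overlap (log2 fold change -1.24, SE 0.17, adjusted p = 5.77e-05 by edgeR). It overlaps 8995 bases of Slc19a1, a folate carrier gene on the other strand that had 327, 389 and 249 counts and 284, 277 and 271 counts. Since the use of strand in counting is not given in the sources used here, reads shared between these genes could be placed on either. Col15a1 had 28, 44 and 28 counts and 27, 40 and 13 counts, and was not called (log2 fold change -0.75, SE 0.42, adjusted p = 0.125 by edgeR). Without Pdk4SMKO replicate 2 it was called lower, at a log2 fold change of -1.21.

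FACIT chains with a call were all higher in Pdk4SMKO, 5 of the 5 tested, against 32.8% of all genes tested. Col9a3 and Col20a1 passed the filter through Pdk4SMKO alone and had to differ to be tested. Col12a1, Col14a1 and Col16a1 passed it in both genotypes. Col14a1, which binds the surface of type I fibrils and limits their width (MGP_C57BL6NJ_G0022261, chr15:56500853-56732188), was at 27.8, 21.9 and 26.0 CPM in Pdk4fl/fl and at 1042, 2166 and 2013 CPM in Pdk4SMKO. The Pdk4SMKO libraries were all far higher, and replicate 1 was the lowest of them. The means of 25.2 ± 3.01 and 1740.4 ± 609.6 CPM were 69.0-fold apart (log2 fold change 6.11, SE 0.30, adjusted p = 6.31e-08 by edgeR). The fibroblast markers Dcn and Ly6a were also lowest in replicate 1 among the Pdk4SMKO libraries, with 5587 counts of Dcn against 11124 and 10269 and 5544 counts of Ly6a against 8053 and 10011. Of the 8 fibroblast markers, 5 were lowest in that library and 2, Cd34 and Pi16, were highest there, and the list summed to 527, 1014 and 1043 CPM. Cartilage markers also summed lowest there, to 17.1, 26.2 and 23.4 CPM, while the other marker lists summed highest there. The part of these markers in the Col14a1 value was not tested.

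Col12a1, the FACIT chain of tensile tissues, was at 67.1, 62.0 and 38.0 CPM in Pdk4fl/fl and at 209, 248 and 177 CPM in Pdk4SMKO (log2 fold change 1.92, SE 0.21). Col16a1, a chain found at smooth muscle and other cell surfaces, was at 26.3, 22.7 and 22.8 CPM and at 76.0, 82.4 and 54.6 CPM (log2 fold change 1.57, SE 0.17). Neither overlapped between genotypes. Col20a1 had 9, 7 and 5 counts against 187, 162 and 134 (log2 fold change 4.05, SE 0.31). It overlaps 741 bases of 9230112E08Rik on the same strand, with 138, 136 and 106 counts against 326, 266 and 250, so its reads may be divided between both. Col9a3, a chain of the cartilage type IX collagen, had 6, 4 and 3 counts against 16, 15 and 15. It passed the filter through Pdk4SMKO alone, so its log2 fold change of 1.35 (SE 0.46) is a description. Its call was lost with DESeq2 and without Pdk4fl/fl replicate 2 or 3 or Pdk4SMKO replicate 2 or 3.

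The other chains were the one class in which more genes were called lower than higher, 5 against 3, and 8 of its 16 members were not tested. Over all genes tested, 26.5% were called lower and 32.8% higher. Col8a2 and Col23a1 passed the filter through Pdk4fl/fl alone and Col28a1 through Pdk4SMKO alone, so these had to differ to be tested. Col6a1, a chain of type VI collagen (MGP_C57BL6NJ_G0017784, chr10:79676420-79695020), was at 1173, 1192 and 1078 CPM in Pdk4fl/fl and at 296, 337 and 246 CPM in Pdk4SMKO. Both sets of libraries were tight and lay well apart. The means of 1148 ± 60.6 and 293 ± 45.5 CPM gave a 3.92-fold lower level in Pdk4SMKO (log2 fold change -1.97, SE 0.14, adjusted p = 8.08e-07 by edgeR). Col6a2, its neighbour on the same strand 91.0 kb away and its partner in the protein, was at 351, 381 and 312 CPM and at 119, 100.03 and 65.0 CPM (log2 fold change -1.88, SE 0.20). Col6a3, the large chain needed to complete the type VI trimer, went the other way. It was at 3.60, 2.64 and 4.77 CPM in Pdk4fl/fl and at 17.9, 28.6 and 22.3 CPM in Pdk4SMKO (log2 fold change 2.66, SE 0.26, adjusted p = 6.09e-06 by edgeR).

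Type VIII collagen, a short-chain network collagen of vessel walls, was split in the same way. Col8a1 was at 18.0, 13.2 and 12.2 CPM in Pdk4fl/fl and at 241, 171 and 150 CPM in Pdk4SMKO (log2 fold change 3.70, SE 0.22). Col8a2 had 12, 23 and 19 counts and 5, 3 and 7 counts (log2 fold change -2.26, SE 0.48). Col8a2 passed the filter through Pdk4fl/fl alone, so its difference is a description. The libraries of the genotypes did not overlap for either chain. Col7a1, which forms the anchoring fibrils of epithelia, was at 13.6, 11.4 and 10.1 CPM and at 7.86, 3.48 and 3.09 CPM (log2 fold change -1.27, SE 0.34). Col23a1, a transmembrane collagen, had 31, 17 and 20 counts and 4, 5 and 3 counts (log2 fold change -2.93, SE 0.50). With library size alone as the scaling, which moved the median log2 fold change of all genes tested from 0.12 to 0.72, the calls of Col7a1, Col18a1 and Col5a3 were lost, at log2 fold changes of -0.66, -0.64 and -0.64.

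Col28a1 encodes type XXVIII collagen, known from peripheral nerve (MGP_C57BL6NJ_G0030883, chr6:5051467-5256761). It had 0 counts in every Pdk4fl/fl library and 484, 2610 and 1394 counts in Pdk4SMKO, or 21.3, 129.9 and 68.4 CPM. The Pdk4SMKO libraries spread over a wide range, with replicate 1 the lowest. Against the mean floor of 0.197 CPM, set by 3 counts in each Pdk4fl/fl library, the mean was at least 371-fold higher. Without Pdk4SMKO replicate 2 the bound was 227-fold.

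**Figure D2:**
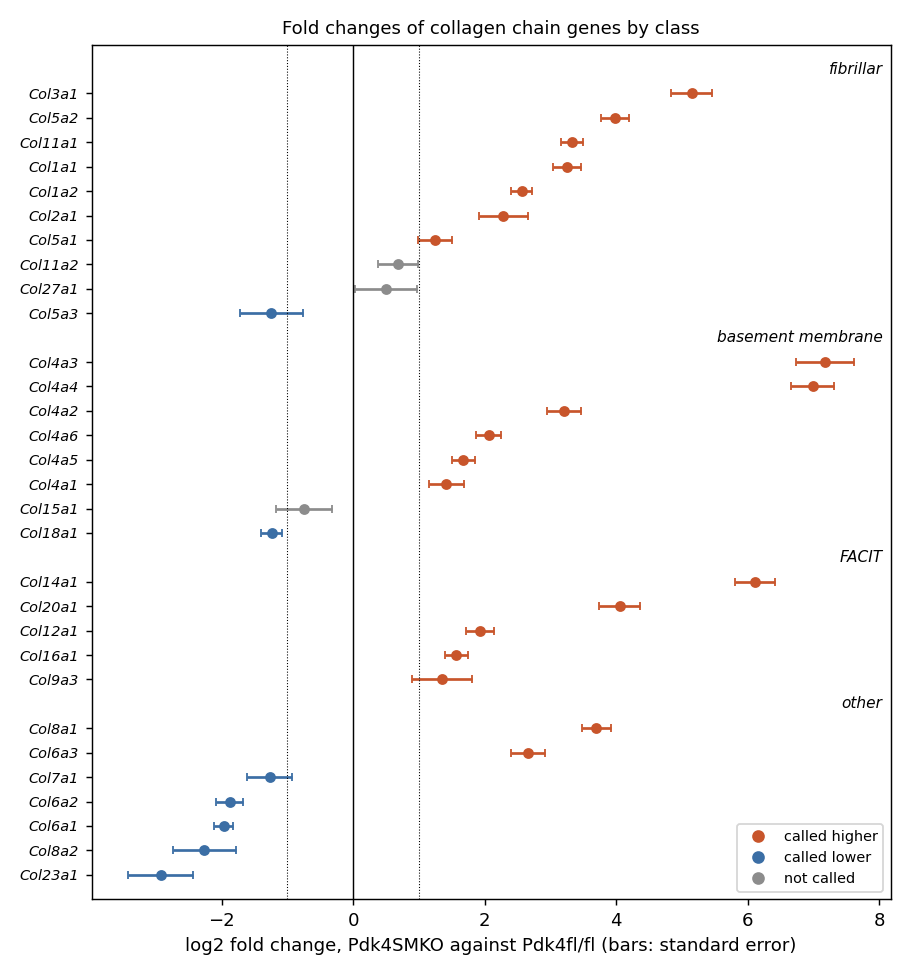
Log2 fold change of Pdk4SMKO against Pdk4fl/fl (horizontal axis) for 30 tested collagen chain genes by class, with the standard error as bars and dotted lines at the limits of -1 and 1. Col28a1 and Col24a1, with 0 and 1 counts in Pdk4fl/fl, are left out, and the downward calls are Col5a3, Col18a1, Col7a1, Col6a2, Col6a1, Col8a2 and Col23a1.

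Of the 12 chain genes that were not tested, 7 had at most 3 counts in every library and were not detectable at this depth. These were Col6a5, Col9a1, Col9a2, Col13a1, Col22a1, Col25a1 and Col26a1. Col10a1, the collagen of hypertrophic cartilage, had 1, 1 and 0 counts against 28, 9 and 8, a ratio of 16.5 with a counting interval of 4.31 to 141. It shares 7067 bases with Nt5dc1, which had 108 to 109 counts in Pdk4fl/fl and 227 to 297 in Pdk4SMKO. Col6a6, a further type VI chain, had 1, 1 and 0 counts against 2, 5 and 7 (ratio 5.14, interval 1.18 to 46.6). Col19a1 had 0, 0 and 2 counts against 2, 6 and 3 (ratio 4.04, interval 0.881 to 37.5). The transmembrane collagen Col17a1 had 8, 8 and 9 counts against 1, 3 and 3, and Col6a4 had 1, 8 and 1 against 3, 1 and 2.

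All chains together took 0.329%, 0.301% and 0.238% of the counts of the Pdk4fl/fl libraries and 2.03%, 2.04% and 1.57% of those of the Pdk4SMKO libraries. The lowest Pdk4SMKO share was several times the highest Pdk4fl/fl share. The 95% Wilson intervals, which cover counting error only, were at most 0.0068 percentage points to either side. The mean shares were 0.289% ± 0.0468 and 1.88% ± 0.267, a 6.50-fold difference (exact two-sided permutation p = 0.1, the smallest that 3 libraries against 3 allow). These shares are of raw library totals, without TMM factors. On the TMM scale of the CPM values the difference was smaller, with mean sums of 3561 CPM in Pdk4fl/fl and 15262 CPM in Pdk4SMKO. Without Col1a1, the gene with the most counts, the difference in raw shares was 4.83-fold.

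Levels of different chains were compared as counts per kilobase of the gene length given in the table, as a share of all collagen chains in a library. On this scale Col6a1 led in Pdk4fl/fl with 44.3%, 46.7% and 51.0%, and it had 3.20%, 3.53% and 3.39% in Pdk4SMKO. Col1a1 was second in Pdk4fl/fl with 18.1%, 17.4% and 15.1% and first in Pdk4SMKO with 49.0%, 44.3% and 42.6%. Col1a1 thus led in every Pdk4SMKO library and Col6a1 in every Pdk4fl/fl library, while Col6a1 ranked 7 by mean share in Pdk4SMKO, behind Col1a2 and Col14a1 among others. With the length of the transcript that has the longest coding sequence in GENCODE M21, these leads held and Col6a1 ranked 6 in Pdk4SMKO. Col1a1 and Col1a2 then had similar mean shares in Pdk4fl/fl, 14.8% and 14.5%, and Col1a2 was ahead in replicate 3 (14.8% against 13.2%).

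Per kilobase, fibrillar chains as a class made up 32.2% ± 2.84 of collagen transcripts in Pdk4fl/fl and 69.6% ± 3.62 in Pdk4SMKO. The share of FACIT chains was 1.98% ± 0.125 and 14.2% ± 5.32, nearly all of the latter from Col14a1 with 12.9% ± 5.29. The other chains fell from 55.7% ± 3.76 to 6.68% ± 0.263, while basement membrane chains were at 10.1% ± 0.907 and 9.51% ± 1.92 and overlapped. The exact permutation p was 0.1 for the first 3 classes and 0.8 for basement membrane chains, or 0.133 and 0.8 after Benjamini-Hochberg adjustment over the 4 classes. Shares add to a whole, so the 4 values are not independent.

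**Figure D3:**
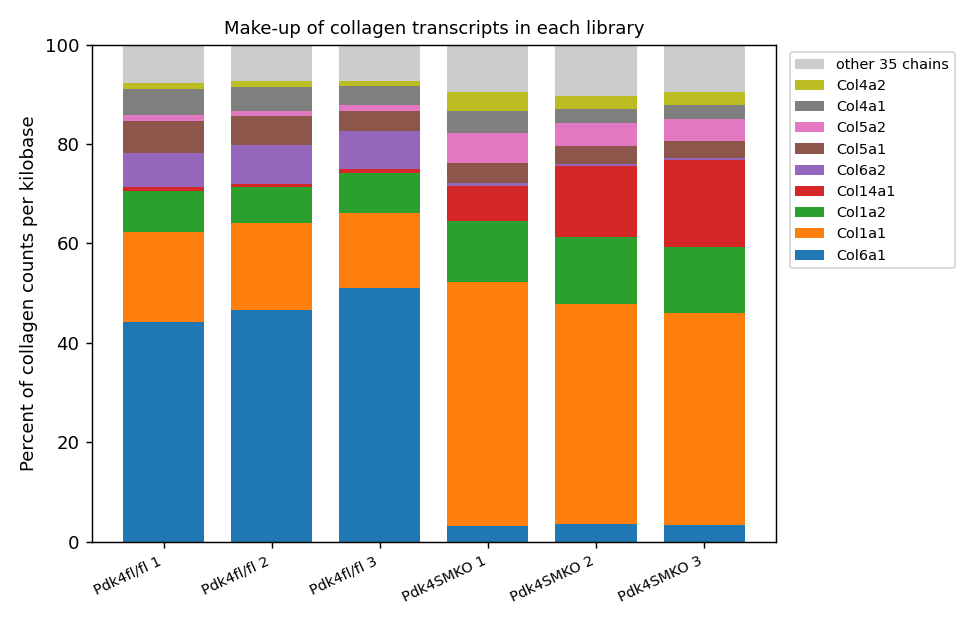
Share of each chain in all collagen counts per kilobase of gene length (vertical axis, percent) in the 6 libraries. The 9 chains with the largest mean share in either genotype are coloured and the other 35 are grey, and Col6a1 falls from between 44.3% and 51.0% to between 3.20% and 3.53%.

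Chains that share a protein were then set against each other within each library, as ratios of counts per kilobase, since the fold change of a ratio does not depend on library scaling or on the length used. Col1a1 to Col1a2 was 2.18, 2.39 and 1.88 in Pdk4fl/fl and 3.99, 3.29 and 3.17 in Pdk4SMKO, a 1.62-fold rise in the mean. The level of the ratio itself depends on the length. With the length of the transcript that has the longest coding sequence in GENCODE M21, the means were 1.02 and 1.65. Col5a1 to Col5a2 was 5.23, 5.82 and 3.33 in Pdk4fl/fl and 0.657, 0.810 and 0.726 in Pdk4SMKO, so the more abundant chain per kilobase was exchanged.

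Col4a1 to Col4a2 was 3.87, 4.47 and 3.98 in Pdk4fl/fl and 1.24, 1.15 and 1.12 in Pdk4SMKO, near equal amounts per kilobase in the latter. Col6a1 to Col6a2 was 6.35, 5.94 and 6.56 and 4.72, 6.40 and 7.19, overlapping between genotypes. Col6a3 to Col6a1 was 0.00112, 0.00081 and 0.00162 in Pdk4fl/fl and 0.0221, 0.0311 and 0.0332 in Pdk4SMKO, 24.3-fold apart. Type VI collagen was thus the case in which a pair of chains kept its ratio within the spread of the libraries while the remaining chain did not. Col8a1 to Col8a2 was 19.8, 9.17 and 7.45 and 966, 1007 and 383, and rests on the 3 to 7 counts of Col8a2 in Pdk4SMKO.

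The exact two-sided permutation p was 0.1 for 5 of the 6 ratios and 0.9 for Col6a1 to Col6a2 (0.12 and 0.9 after Benjamini-Hochberg adjustment over the 6), and 3 libraries against 3 cannot give less than 0.1. A ratio within type IX collagen was not computed, since Col9a1 and Col9a2 were not detectable.

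**Figure D4:**
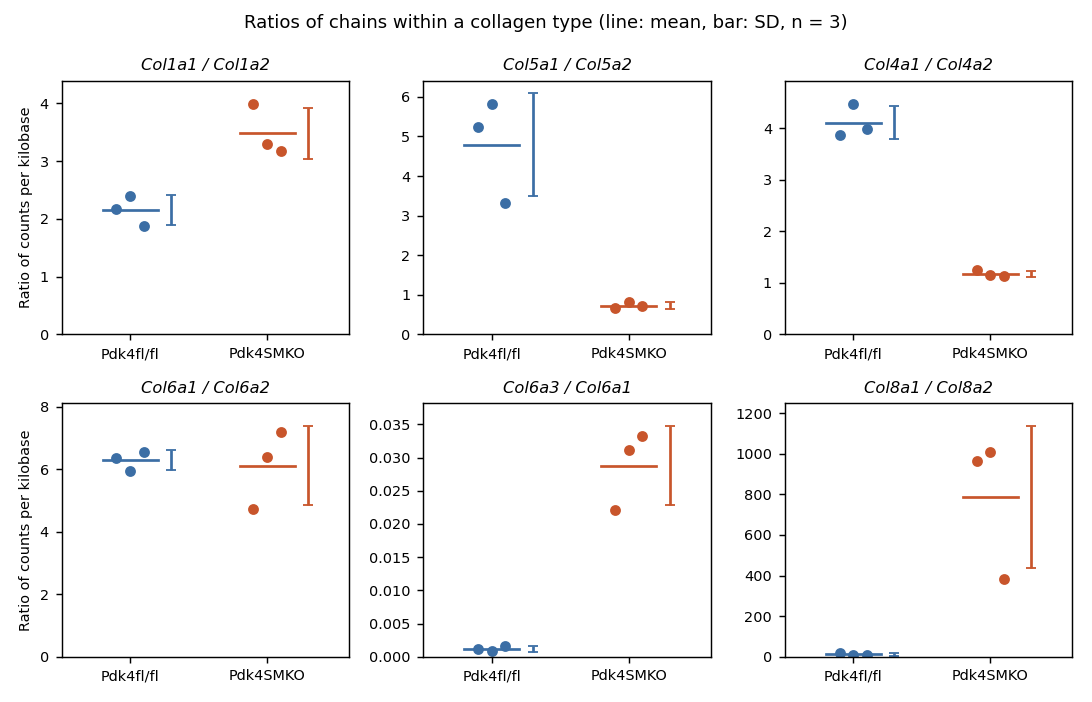
Ratio of counts per kilobase between chains of a collagen type (vertical axes, linear and starting at 0), with 1 point per library, a line for the mean and a bar for the SD of 3 libraries. The genotypes are apart in 5 panels and overlap for Col6a1 to Col6a2, where they lie between 4.72 and 7.19.

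The sequence before the start site was read for the chain genes that have an entry among RefSeq start regions (GRCm38.p6), 35 of the 44 with 38 regions. The 120 bases that end at the start are shown for a pair of chains called higher, Col3a1 and Col8a1, and a pair called lower, Col6a2 and Col7a1, to let these be compared by eye. Col6a2 has 2 start regions in RefSeq, and the one shown has no annotated exon in its 120 bases. The other, which overlaps an exon, holds GGGCGG 3 times in the 120 bases before its start. Capitals mark TATAAA and GGGCGG (or its reverse complement CCGCCC), and CCAAT was searched as well.
Col3a1, chr1:45311418-45311537, plus strand: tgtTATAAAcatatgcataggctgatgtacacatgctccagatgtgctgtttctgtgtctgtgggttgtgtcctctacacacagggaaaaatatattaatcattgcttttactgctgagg
Col8a1, chr16:57754738-57754857, minus strand: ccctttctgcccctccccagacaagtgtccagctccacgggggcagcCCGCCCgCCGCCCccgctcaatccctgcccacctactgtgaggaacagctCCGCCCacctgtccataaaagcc
Col6a2, chr10:76623631-76623750, minus strand: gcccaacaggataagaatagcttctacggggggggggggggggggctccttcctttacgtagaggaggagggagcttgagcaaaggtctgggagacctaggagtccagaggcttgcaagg
Col7a1, chr9:108953466-108953585, plus strand: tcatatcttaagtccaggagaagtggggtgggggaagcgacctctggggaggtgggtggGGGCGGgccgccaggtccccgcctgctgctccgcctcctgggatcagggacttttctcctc

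Over the 250 bases before the start and on both strands, GGGCGG stood in 22 of the 38 collagen regions (57.9%) and in 32.7% of all 32851 regions. CCAAT stood in 13 (34.2%) against 33.8%, and TATAAA in 5 (13.2%) against 12.4%. These are matches of letters only. GGGCGG was present before chains of both directions, among them Col8a1 and Col7a1.

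Genes that fold, modify, cleave or bind collagen were taken from lists. Of 18 folding and modification genes found in the table, 17 were tested, 7 were called higher and 3 lower (41.2% and 17.6%, against 32.8% and 26.5% of all genes tested). The largest differences were those of P3h4, a partner of lysyl hydroxylase (17.6 against 123 CPM, log2 fold change 2.80, SE 0.15), Plod2, the lysyl hydroxylase of collagen telopeptides (log2 fold change 2.62, SE 0.14), and P3h3 of the leprecan family (log2 fold change 2.07, SE 0.16). P4ha2, P4ha3, Crtap and Plod1 were also called higher. The lower genes were P3h2, the cyclophilin Ppib and the endoplasmic reticulum channel Tmem38b. P4hb, the shared subunit of prolyl hydroxylase and the gene with the highest mean CPM of the list, was at 1486 and 1138 CPM (log2 fold change -0.39, SE 0.12) and was not called. With library size alone as the scaling its log2 fold change turned to 0.22. Serpinh1, the collagen chaperone HSP47, was chosen after its values were seen and was at 1577 CPM in Pdk4fl/fl and 833 CPM in Pdk4SMKO and fell short of the fold limit (log2 fold change -0.92, SE 0.14). Without Pdk4SMKO replicate 1 it was called lower, at -1.01.

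Of 8 genes of propeptide processing, 6 were tested, 2 were called higher and 1 lower, and the 33.3% higher is close to the 32.8% of all genes tested. Tll1, a relative of the C-propeptide protease Bmp1, had 46, 43 and 36 counts in Pdk4fl/fl and 1110, 626 and 472 in Pdk4SMKO (log2 fold change 3.66, SE 0.29). The N-propeptide protease Adamts2 had a log2 fold change of 1.49 (SE 0.17) and the enhancer Pcolce2 one of -1.77 (SE 0.32). Pcolce, the enhancer of C-propeptide cleavage with the highest CPM of this list, was not called, with 442 and 599 CPM (log2 fold change 0.44, SE 0.12).

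Of 8 collagen receptor genes, all tested, 6 were called higher, against 32.8% of all genes tested, and 0 lower by edgeR, with 0 lower at an unadjusted p under 0.05 and 0 lower by DESeq2. The largest differences were those of Mrc2, the endocytic receptor for collagen (67.1 against 355 CPM, log2 fold change 2.40, SE 0.14), the integrin chain Itga1 (log2 fold change 2.00, SE 0.28) and the discoidin receptor Ddr1 (log2 fold change 1.91, SE 0.14). Itga10, Itga2 and the common chain Itgb1 were also called higher. Itga2 was not called without Pdk4SMKO replicate 1, at a log2 fold change of 0.79. Itgb1, with the highest mean CPM of the list, was at 702 and 1442 CPM (log2 fold change 1.04, SE 0.12), and without Pdk4SMKO replicate 1 it fell just under the limit at 0.996. Ddr2 and Itga11 were not called.

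**Figure D5:**
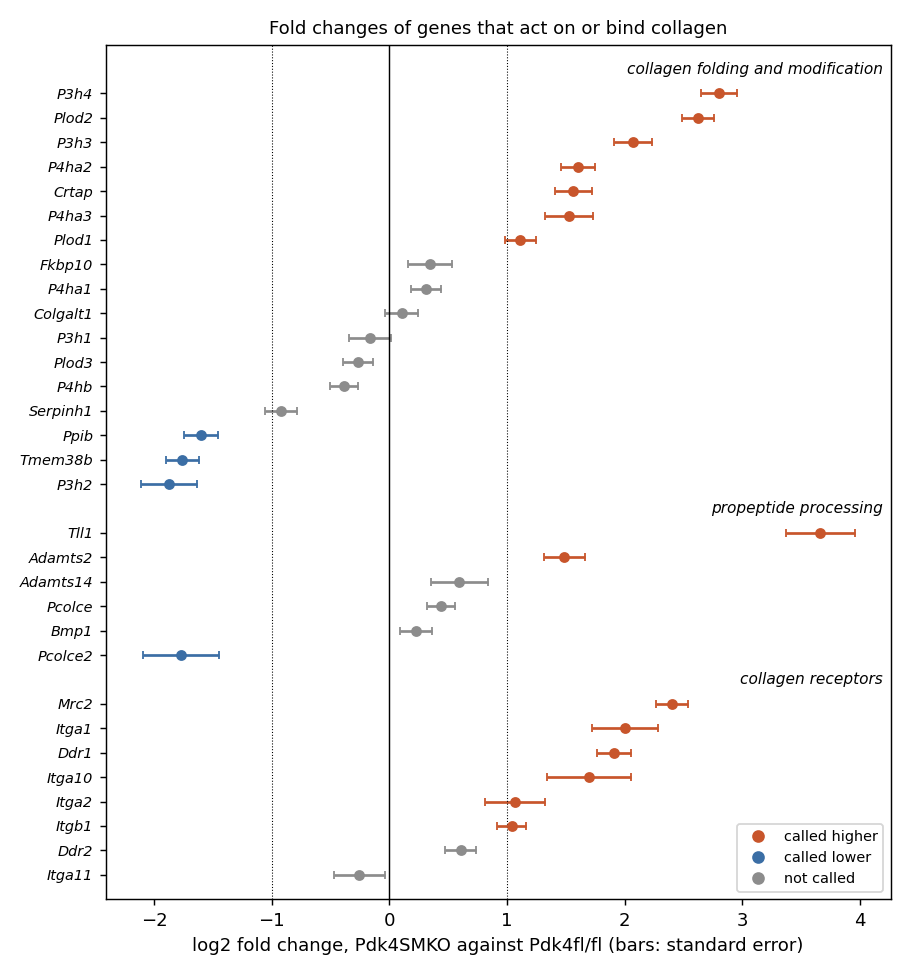
Log2 fold change of Pdk4SMKO against Pdk4fl/fl (horizontal axis) for the tested genes that fold or modify collagen, process its propeptides or serve as its receptors, with the standard error as bars and dotted lines at -1 and 1. Tll1 at 3.66 and P3h4 at 2.80 are the highest, and P3h2, Pcolce2, Tmem38b and Ppib are called lower.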

How the data were processed

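RNA of 6 cultures of MASMCs, 3 labelled Pdk4fl/fl and 3 labelled Pdk4SMKO, was sequenced. The authors deposited whole-number read counts per gene, without normalization, in a table with a column per library. The identifiers and coordinates are those of the C57BL/6NJ assembly, although the build named in the labels is another, and the aligner, the counting program and the use of strand are not given in the sources used here. The library kit named in the labels differs from that in the study's methods. The study calls the 3 libraries per genotype biological replicates, without saying in the labels whether each came from its own animal, and p-values measure the spread between them. Replicates within a genotype had log2 CPM correlations of 0.981 or more.

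Counts were filtered with filterByExpr, scaled by TMM and fitted on genotype in edgeR 4.0.16 (R 4.3.3) by the quasi-likelihood test, across all 14085 genes that passed, with Benjamini-Hochberg adjustment over all of them. The SE of a log2 fold change was derived as its absolute value divided by the square root of the F statistic of that test. Single values were compared by exact permutation tests over the 6 libraries. The collagen genes, their classes and the lists of other genes were chosen with earlier results of these data known. Every collagen gene was accounted for. From the lists of folding, processing and receptor genes, the 3 called genes with the largest fold change and the gene with the highest mean CPM were named with values. Mia3, Cnmd and Snorc have no row under these names. The alternatives were other scalings, DESeq2 1.42.0, other filters and limits, the replicate number as a block and leaving out each library, and transcript lengths of GENCODE M21 were added after the values were seen. The fits were tested on simulated counts in which few genes changed. Most genes tested were called in these data, so that simulation cannot check the scaling used here.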

Additional observations from a re-analysis of the deposited data

How the results depend on the processing

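Of 471 values for the 32 tested collagen genes under the alternatives, 441 kept the direction and the side of the limits, 27 lost the call, 2 gained one and 1 turned. With library size alone as the scaling, 4 collagen genes were lower in place of 7, fibrillar and basement membrane genes called lower were 0 and 0, propeptide processing genes called higher were 4 and the log2 fold change of P4hb was 0.22. Fibrillar genes called lower were also 0 with upper-quartile factors. With at least 10 counts in every library, 3 FACIT genes were higher and 3 other collagen genes lower, since fewer genes were tested. With a log2 limit of 2, 2 collagen genes were lower in all, both among the other chains, with 0 fibrillar and 0 basement membrane genes lower and 2 FACIT genes higher. At that limit 3 folding genes were higher and 0 lower, 1 processing gene was higher and 0 lower, and 2 receptor genes were higher. With no fold limit, 5 folding genes were lower and 4 processing genes higher. Without 1 library in turn, fibrillar genes called lower ranged from 0 to 1 and basement membrane genes called lower from 1 to 2. The log2 fold change of Col27a1 ranged from -0.44 to 0.87, the fold of the Col6a1 to Col6a2 ratio from 0.884 to 1.08 and that of the basement membrane share from 0.834 to 1.00. The cause was not tested. Over all genes, the share of higher among called genes was 55.3%, and 72.1% with library size alone.

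Same-numbered libraries deviated together with correlations of 0.0396, 0.0604 and 0.176, and those of unlike number with -0.131 to 0.0533. With 3 libraries per genotype, these values cannot show whether same-numbered cultures were prepared together. The fit with the replicate block called 4577 genes higher and 3704 lower, against 4616 and 3733, and among collagen genes it lost the call of Col9a3 alone (log2 fold change 1.36). Counts near 0 limit the folds of Col28a1, Col24a1, Col4a3, Col4a4, Col8a2, Col9a3, Col10a1 and Col23a1.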
